A study of Mus musculus with 6 samples.

Results

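Egr1, Atf3, Klf4, Ier3, Socs3 and Hspa1b are 6 mouse genes whose transcripts are known to build up quickly after a stimulus or a stress. They were taken by symbol from the deposited matrices, which held 5301 features in all and 1642 in every one of the 3 matrices, and each of the 6 genes was present in every matrix. The cells were CD45+ cells sorted from the liver of Balb/c mice after intracardiac injection of 4T07 mouse mammary tumor cells (4TO7 in the labels). The injected tumor cells were either Ctrl or Tim3-KD, a knockdown carried by the tumor cells and not by the sorted host cells, and the 2 groups are called Ctrl and Tim3-KD here. Livers were taken on day 3 (micrometastasis, and adjacent tissue free of tumor) and on day 12 (macrometastasis), and the age of the mice was not used here. The 6 groups had 1 library each. A library was pooled from a pair of mice. Differences therefore have no replicate check, no p-value is given, and every interval is an exact 95% interval that covers counting error only.

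Immediate early genes are transcribed without new protein synthesis when growth factors, cytokines or mechanical and oxidative stress reach a cell. Egr1, Atf3 and Klf4 encode transcription factors of this response, Ier3 and Socs3 encode inhibitors that feed back on NF-kappa B and STAT3 signalling, and Hspa1b encodes an inducible Hsp70 chaperone driven by heat shock factor. The same genes are known to be induced while tissue is minced and digested warm. All 6 libraries came from liver that was chopped, digested with collagenase and DNase at body temperature and sorted, and none was prepared without that step. Transcripts made in the animal and transcripts made during preparation therefore cannot be told apart in these data.

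Known response motifs were searched on both strands in the 250 bases before the RefSeq start of Hspa1b, Hspa1a, Atf3, Klf4, Ier3 and Socs3. Windows that hold a match are shown. Egr1 had no entry among the promoter windows and was not searched. Sequences are from RefSeq (GRCm38.p6), written 5′ to 3′ on the gene's strand, with the match in capitals. In Hspa1b (chr17:34959239-34959358, minus strand) and its neighbour Hspa1a (chr17:34972157-34972276, minus strand), the capitals mark the heat shock element core GAANNTTC. In Atf3 (chr1:191183334-191183363, minus strand) they mark a CRE-like site, TGACGTNA read on the opposite strand. The Atf3 and Socs3 windows precede starts that lie inside the annotated genes, and the Atf3 window overlaps an annotated Atf3 exon. In Socs3 (chr11:117969492-117969551, minus strand) they mark the STAT core TTCNNNGAA, and in Ier3 (chr17:35821543-35821602, plus strand) the kappa B-like site GGNNNTTCC. Of 32851 promoter windows of 250 bases, 6.69% held the heat shock element core, 2.52% the CRE-like site, 7.02% the STAT core and 15.7% the kappa B-like site. The Hspa1b and Hspa1a windows were the same at 119 of 120 bases, and both also held a kappa B-like match from 132 to 124 bases before the start. None of these motifs was found in the Klf4 window.
Hspa1b: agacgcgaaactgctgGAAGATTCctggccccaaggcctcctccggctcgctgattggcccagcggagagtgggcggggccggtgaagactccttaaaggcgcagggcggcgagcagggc
Hspa1a: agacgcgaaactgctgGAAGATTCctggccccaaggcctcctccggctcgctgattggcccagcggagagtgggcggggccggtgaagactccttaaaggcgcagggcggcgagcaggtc
Atf3: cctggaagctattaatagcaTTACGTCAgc
Socs3: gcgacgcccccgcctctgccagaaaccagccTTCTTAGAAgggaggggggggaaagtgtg
Ier3: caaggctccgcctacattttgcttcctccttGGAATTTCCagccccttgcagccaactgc
The matches are descriptions of the letters and say nothing about whether a factor was bound in these cells.

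Before the results, the libraries themselves differed. The adjacent Tim3-KD library held 542 cells and the adjacent Ctrl library 1803, against 4913 to 5502 cells in the other 4, and median UMIs (unique molecular identifiers, 1 per captured transcript) per cell ranged from 6300 to 10248. A doublet score over 0.15 was found in 10.5% of adjacent Tim3-KD cells and in 2.21% to 6.36% of cells elsewhere, and any pair of libraries shared between 0 and 11 cell barcodes. Cells were clustered without the members and without the related stress genes, which gave 28 clusters in 11 classes named by marker genes and 3 unnamed classes. All levels are given as CPM, the UMIs of a gene divided by all UMIs of the same cells and multiplied by 1000000. Endothelial-like cells (632 in all) were present although the sort was for CD45, and the liver cell transcript Alb was found at 10.4 to 93.3 CPM in every library, so RNA from cells outside the gate was measured too.

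Across the 56 groups of class and library with at least 50 cells, the members were highest in 2 kinds of cell. Kupffer-like cells, the resident macrophages of liver, or endothelial-like cells held the highest level in 24 of the 36 combinations of member and library, although adjacent Ctrl had 50 cells of neither and endothelial-like cells reached 50 in 3 libraries only. Neutrophil precursor-like cells, the cells with the most UMIs, lay at the other end: after each cell was thinned to 1500 UMIs, 3 or more of the 6 members were found together in 0% to 0.11% of them. In contrast, 3 or more members were found in 19.4% to 57.4% of Kupffer-like cells and in 42.1% to 55.2% of endothelial-like cells in the groups of that size.

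**Figure D1:**
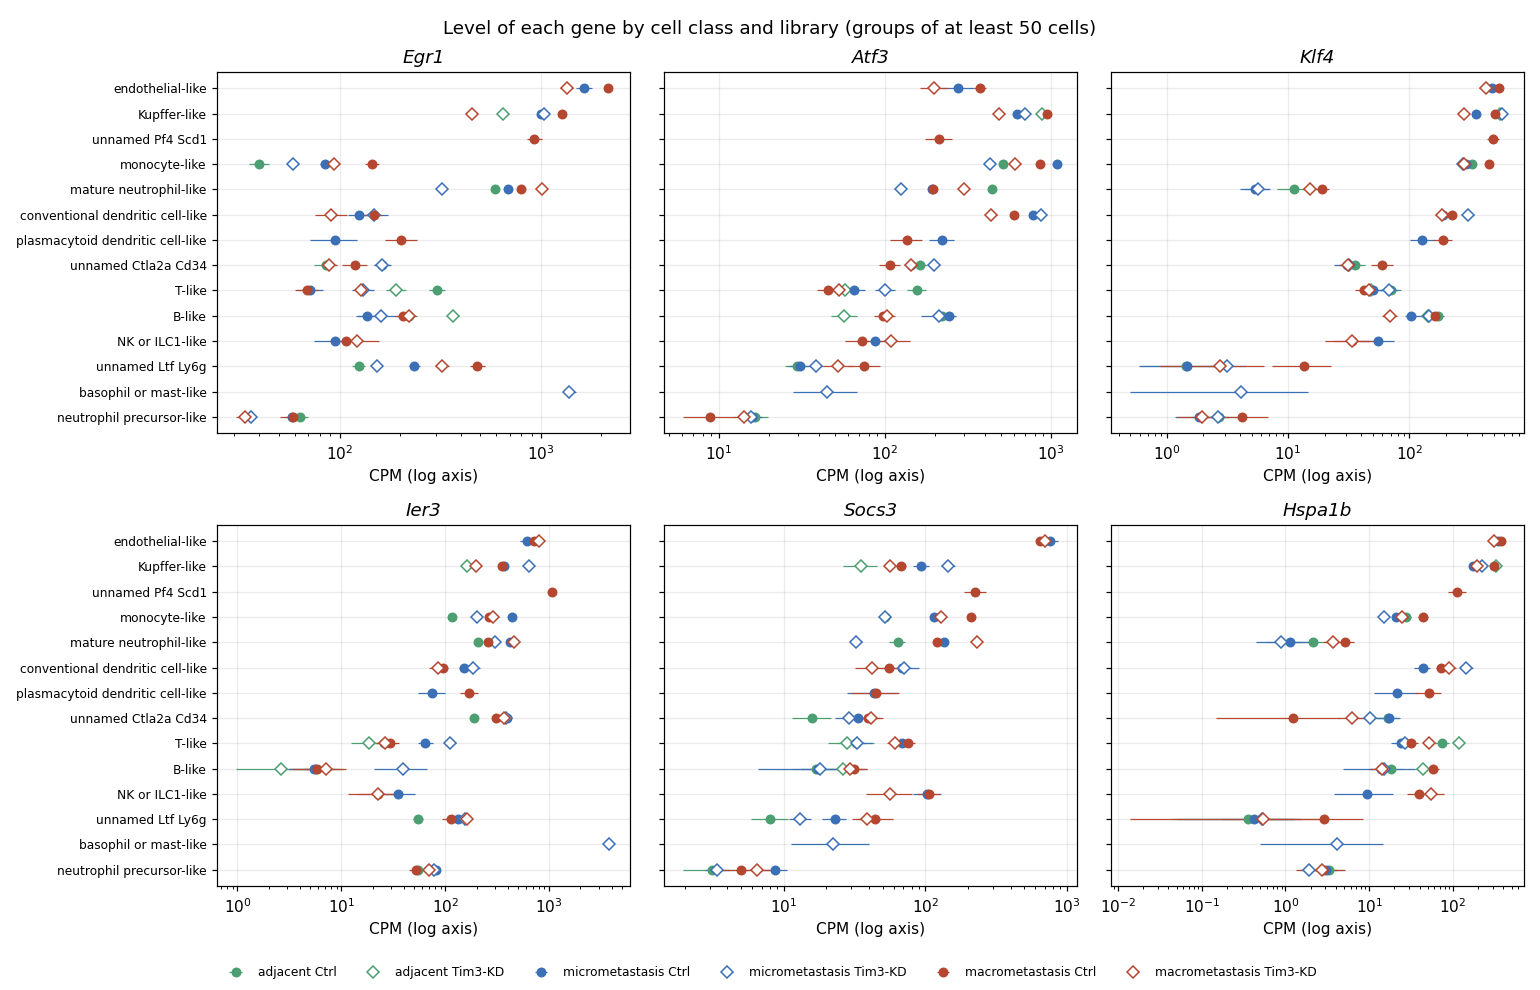
Level of each member (CPM, log axis) by cell class, with a point for each library with at least 50 cells of that class and bars for the exact 95% Poisson interval. Egr1, Klf4, Socs3 and Hspa1b reach high levels in endothelial-like cells, while Ier3 is lowest in B-like cells and Atf3, Klf4 and Socs3 are low in neutrophil precursor-like cells.

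Egr1, a zinc finger transcription factor and one of the first genes to answer a growth factor, had 188 CPM over all cells of the adjacent Ctrl library (interval 184 to 193). The level was 400 in adjacent Tim3-KD, 268 in micrometastasis Ctrl, 149 in micrometastasis Tim3-KD, 617 in macrometastasis Ctrl and 392 in macrometastasis Tim3-KD. Macrometastasis Ctrl was thus the highest library and micrometastasis Tim3-KD the lowest. By class, Egr1 reached 1351 to 2171 in endothelial-like cells, 456 to 1279 in Kupffer-like cells and 323 to 1009 in mature neutrophil-like cells. The same gene stayed between 39.8 and 145 in monocyte-like cells and between 34.1 and 63.7 in neutrophil precursor-like cells. The ranges of endothelial-like and Kupffer-like cells did not overlap, whereas those of Kupffer-like and mature neutrophil-like cells did.

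Atf3, a stress-induced member of the ATF/CREB family (GRCm38 chr1:191170296-191218039, minus strand), had 249, 369, 391, 155, 386 and 284 CPM in adjacent Ctrl, adjacent Tim3-KD, micrometastasis Ctrl, micrometastasis Tim3-KD, macrometastasis Ctrl and macrometastasis Tim3-KD. Micrometastasis Tim3-KD was the lowest library, and micrometastasis Ctrl and macrometastasis Ctrl had overlapping intervals (386 to 396 and 380.2 to 391.9). Its highest levels were 490 to 946 in Kupffer-like cells, 436 to 879 in conventional dendritic cell-like cells and 429 to 1090 in monocyte-like cells, 3 ranges that overlap. Endothelial-like cells held 199 to 376, mature neutrophil-like cells 125 to 444 and B-like cells 57.0 to 244. Neutrophil precursor-like cells were the lowest class in 5 of 5 libraries, with 8.89 to 16.5.

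Klf4, a zinc finger factor known in monocyte and endothelial differentiation (GRCm38 chr4:55527143-55532466, minus strand), had 114 CPM in adjacent Ctrl, 278 in adjacent Tim3-KD, 110 in micrometastasis Ctrl, 80.6 in micrometastasis Tim3-KD, 204 in macrometastasis Ctrl and 115 in macrometastasis Tim3-KD. Adjacent Tim3-KD was the highest library for this gene. Klf4 was found at 283 to 581 in Kupffer-like, 433 to 555 in endothelial-like and 278 to 459 in monocyte-like cells, which overlap. Neutrophils of either stage had little: 5.31 to 19.1 in mature neutrophil-like cells and 1.83 to 4.17 in neutrophil precursor-like cells. Mature neutrophil-like cells were thus among the lower classes for Klf4 and among the higher ones for Egr1.

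Ier3, a short-lived inhibitor of NF-kappa B signalling (GRCm38 chr17:35821684-35822923, plus strand), had 114 CPM in adjacent Ctrl, 75.8 in adjacent Tim3-KD, 291 in micrometastasis Ctrl, 199 in micrometastasis Tim3-KD, 236 in macrometastasis Ctrl and 268 in macrometastasis Tim3-KD. Both adjacent libraries lay below all 4 metastasis libraries. Its highest level was in the basophil or mast-like cells of the micrometastasis Tim3-KD library, at 3783, the only library with at least 50 such cells. The unnamed class led by Pf4 and Scd1 had 1063 in macrometastasis Ctrl, the only library with 50 such cells, and endothelial-like cells had 614 to 793. B-like cells were the lowest class in 6 of 6 libraries, with 2.65 to 38.8.

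Socs3, the cytokine-induced inhibitor of JAK and STAT3 signalling (GRCm38 chr11:117966079-117970047, minus strand), had 29.3 CPM in adjacent Ctrl, 55.3 in adjacent Tim3-KD, 75.4 in micrometastasis Ctrl, 26.4 in micrometastasis Tim3-KD, 113 in macrometastasis Ctrl and 104 in macrometastasis Tim3-KD. The 2 macrometastasis libraries were the highest. Endothelial-like cells carried 650 to 758, above every other class measured in the same libraries. Mature neutrophil-like cells spread over 7.23-fold between libraries, from 32.3 to 234, and neutrophil precursor-like cells were the lowest class in 5 of 5 libraries (3.14 to 8.68).

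Hspa1b, an inducible Hsp70 chaperone gene (GRCm38 chr17:34956436-34959238, minus strand), had 21.1 CPM in adjacent Ctrl, 152 in adjacent Tim3-KD, 20.0 in micrometastasis Ctrl, 13.4 in micrometastasis Tim3-KD, 88.8 in macrometastasis Ctrl and 49.9 in macrometastasis Tim3-KD. Adjacent Ctrl and micrometastasis Ctrl overlapped within counting error (19.5 to 22.8 and 18.8 to 21.2). Endothelial-like cells had 310 to 375, Kupffer-like cells 175 to 326, and the unnamed class led by Ltf and Ly6g 0.36 to 2.90.

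Over the 56 groups, the features whose log2 levels went most closely with each member were named by Pearson correlation among 1641 features, as a description over groups that share libraries, matrices and depth. Egr1 went with Susd6 (r = 0.81), Klf2 (0.77) and Zbtb37 (0.77). Atf3 was closest to Fos (0.82), Gngt2 (0.80) and Ifi202b (0.80), and Klf4 to Id3 (0.93), Hspa1a (0.92) and Trio (0.88). Ier3 was closest to Cdkn1a (0.84), Nlrp3 (0.76) and Id1 (0.74). For Socs3 the list was Bmpr2 (0.81), Btbd7 (0.80) and Mlxip (0.80), and for Hspa1b the feature of reads shared by Hspa1a and Hspa1b (0.96), Mink1 (0.91) and Zbtb4 (0.90). Among the members themselves r ranged from 0.14 for Ier3 with Hspa1b to 0.83 for Klf4 with Hspa1b, so the 6 genes did not vary as 1 block across classes.

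Within the Kupffer-like class, the members separated 2 clusters that carried the same resident macrophage markers. This comparison was chosen after the values were seen. It was made in the 4 libraries with at least 50 cells of both clusters, which were numbered 23 and 24. Egr1 had 11.6 CPM in cluster 23 against 902 in cluster 24 of adjacent Tim3-KD, and 10.0 against 1143 in micrometastasis Ctrl. In macrometastasis it had 26.8 against 1323 in Ctrl and 14.3 against 494 in Tim3-KD. Cluster 24 was therefore higher by 77.7-fold (interval 33.2 to 240), 114-fold (39.0 to 553), 49.4-fold (23.96 to 122.8) and 34.6-fold (19.8 to 67.0).

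The other members followed in every one of the 4 libraries. Hspa1b had 9.29 against 449 CPM in adjacent Tim3-KD, 3.34 against 199 in micrometastasis Ctrl, 15.3 against 317 in macrometastasis Ctrl and 7.14 against 207 in macrometastasis Tim3-KD. Ier3 had no UMI at all in the 55 cluster 23 cells of adjacent Tim3-KD, which made cluster 24 (224 CPM) at least 32.2-fold higher when 3 UMIs over the group are taken as the floor. Atf3 was higher in cluster 24 by 12.3- to 88.1-fold and Klf4 by 22.8- to 66.5-fold. Socs3 had the smallest differences in the macrometastasis libraries, 5.998-fold (2.04 to 29.2) in Ctrl and 5.58-fold (2.92 to 12.3) in Tim3-KD, with 3 and 9 UMIs in cluster 23. After thinning to 1500 UMIs, no member was found in 86.4% to 96.7% of cluster 23 cells and in 3.26% to 19.8% of cluster 24 cells of these libraries.

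Kupffer cell identity genes showed no such gap. Clec4f, a lectin restricted to Kupffer cells, had 6350, 5779, 6287 and 6947 CPM in cluster 23 of the 4 libraries in the order above, and 7313, 5521, 6194 and 7415 in cluster 24. The level in cluster 24 divided by that in cluster 23 ran over the 4 libraries from 0.780 to 0.872 for Vsig4, a complement receptor, from 0.880 to 1.11 for Timd4, a receptor for dying cells, and from 0.865 to 0.967 for the complement gene C1qa.

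Related stress genes were read from 3 lists. Fos, a subunit of AP-1, had 34.8 CPM in cluster 23 and 3737 in cluster 24 of adjacent Tim3-KD. At least 2-fold lower levels in cluster 23 were found for 11 of 11 immediate early transcription factors in adjacent Tim3-KD, 11 of 13 in micrometastasis Ctrl, 9 of 12 in macrometastasis Ctrl and 11 of 12 in macrometastasis Tim3-KD. For other immediate early genes and feedback inhibitors the counts were 14 of 14, 13 of 14, 7 of 12 and 8 of 12, and for heat shock and chaperone genes 3 of 4, 3 of 7, 4 of 5 and 3 of 5. In macrometastasis Ctrl, 1 gene of each of the first 2 lists was at least 2-fold higher in cluster 23, as were 197 of 1989 features, and no listed gene was in the other 3 libraries. Of all features, 31.8%, 39.3%, 28% and 35.2% were at least 2-fold lower in cluster 23, in the same order of libraries. The nuclear RNA Neat1 was lower too, at 9.29 against 869 CPM in adjacent Tim3-KD and 6.68 against 956 in micrometastasis Ctrl. Cluster 23 cells were also shallower, with median UMIs of 7687, 4708, 3858 and 4201 against 22438, 10009, 9656 and 12720, and the part of depth or of cell handling in these differences was not tested. None of the cluster 23 cells in these 4 libraries had a doublet score over 0.15.

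**Figure D2:**
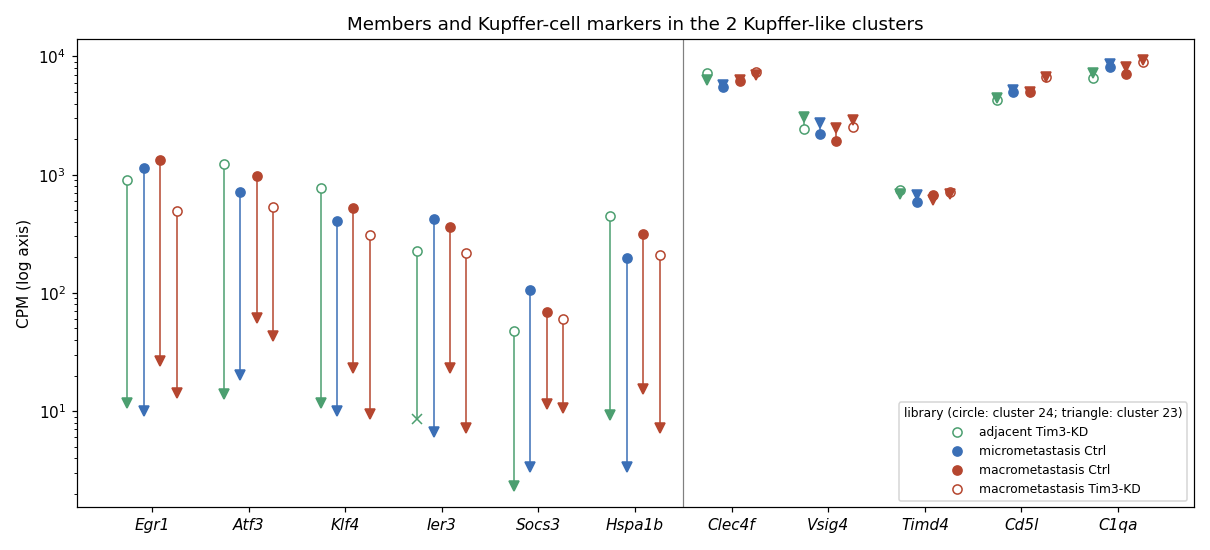
Levels of the 6 members (left) and of 5 Kupffer cell markers (right) in CPM (log axis) for cluster 24 (circles) and cluster 23 (triangles) in 4 libraries, joined by a line, with circles filled for Ctrl and open for Tim3-KD. A cross gives the upper 95% limit where no UMI was found (Ier3, adjacent Tim3-KD). Members are separated by 5.58-fold or more while the markers lie close together.

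Cluster 23 made up different parts of the Kupffer-like class. It held 9 of 31 cells in adjacent Ctrl, 55 of 106 in adjacent Tim3-KD, 61 of 274 in micrometastasis Ctrl, 4 of 256 in micrometastasis Tim3-KD, 66 of 803 in macrometastasis Ctrl and 183 of 936 in macrometastasis Tim3-KD. Genes that define the 2 clusters differ between them, so these numbers are given only to show where the class averages come from. Neither the adjacent Ctrl nor the micrometastasis Tim3-KD library had enough cluster 23 cells for the comparison above.

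The effect of the knockdown in the tumor cells on the members was asked within each site. Over whole libraries of adjacent tissue, 3 of 6 members were at least 2-fold higher in Tim3-KD and none was 2-fold lower, where 34% of all features were higher and 9.39% lower by the same rule and the median feature was shifted by 0.59 on the log2 scale. Relative to the trimmed mean of all features, 1 member was at least 2-fold higher (Hspa1b, log2 2.25) and 1 lower (Ier3, log2 -1.19). The values of Egr1, Klf4 and Atf3 were 0.49, 0.68 and -0.029. The shares of all features past 2-fold on that scale are not given here. Egr1 was 2.12-fold (2.03 to 2.22), Klf4 2.43-fold (2.30 to 2.57) and Hspa1b 7.17-fold (6.50 to 7.92) as high as in Ctrl. Atf3 was 1.48-fold (1.41 to 1.55) and Socs3 1.89-fold as high. The 2 libraries held different cells, with 106 of 542 Kupffer-like cells in Tim3-KD and 31 of 1803 in Ctrl. When the Ctrl class levels were weighted by the Tim3-KD class shares (7 classes, 92.0% of Tim3-KD UMIs), Egr1 stood at 0.623, Atf3 at 0.737 and Klf4 at 0.838 of Ctrl, which reverses their direction, while Socs3 stood at 1.06 and Hspa1b at 1.33. That weighting took classes of at least 10 cells in both libraries, and for Egr1 and Klf4 the reversal rests on the 31 Kupffer-like cells of adjacent Ctrl. With Kupffer-like cells left out of both libraries (6 classes, 70.3% of Tim3-KD UMIs), Egr1 stood at 1.32, Klf4 at 1.20, Socs3 at 1.71 and Hspa1b at 2.30, while Atf3 stayed below Ctrl at 0.815. Ier3 was at 0.664 of Ctrl over whole libraries, at 0.455 under the weighting with Kupffer-like cells and at 0.876 without them.

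Classes could be compared in adjacent tissue for B-like and T-like cells only. Of 11 pairs of member and class, 1 was at least 2-fold higher and 2 were lower in Tim3-KD, against 6.87% and 13.2% of all pairs of feature and class. Atf3 was the lower one in both: 57.0 against 222 CPM in B-like cells (ratio 0.257, 0.209 to 0.314) and 57.8 against 156 in T-like cells (0.370, 0.288 to 0.472). The T-like cells lay in different clusters, since cluster 11 held 92 of 182 in Ctrl and fewer than 50 in Tim3-KD, and in the only cluster that both libraries held in number, 15, the Atf3 ratio was 1.05 (0.625 to 1.83). In B-like cells the Atf3 ratio inside cluster 8 was 0.213 (0.172 to 0.260). Hspa1b was higher in B-like cells, at 43.3 against 18.1 (2.39, 1.59 to 3.68), and at 2.02 inside cluster 8.

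In micrometastasis all 6 members were lower in Tim3-KD over whole libraries, as was the median of all features (log2 -0.43). Atf3 (0.397, 0.388 to 0.406) and Socs3 (0.350, 0.332 to 0.369) were at least 2-fold lower, 2 of 6 members against 18.2% of features, and none was at least 2-fold higher, against 0.75%. Weighted by Tim3-KD class shares, Atf3 stood at 0.546 and Socs3 at 0.456 of Ctrl, while Klf4 (1.08) and Hspa1b (1.03) then lay just above Ctrl. Egr1 was at 0.555, Ier3 at 0.683, Hspa1b at 0.672 and Klf4 at 0.735 over whole libraries.

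Within classes, 7 of 53 pairs in micrometastasis were at least 2-fold lower and 3 were at least 2-fold higher, against 6.46% and 5.4% of all pairs. Socs3 accounted for 4 of the 7. In mature neutrophil-like cells it had 136 CPM in Ctrl (1471 cells) and 32.3 in Tim3-KD (1624 cells), a ratio of 0.237 (0.212 to 0.265). Socs3 was also lower in monocyte-like cells (0.450, 0.412 to 0.490), T-like cells (0.477, 0.352 to 0.641) and neutrophil precursor-like cells (0.391, 0.298 to 0.514). The Socs3 difference was past 2-fold inside each of the 3 mature neutrophil-like clusters that could be compared, with ratios of 0.280, 0.340 and 0.384 in clusters 0, 1 and 2. Egr1 was lower in the same class, at 323 against 690 (0.468, 0.450 to 0.486), and at 0.563 to 0.614 inside those clusters, none past 2-fold. For monocyte-like cells the Socs3 ratio was 0.445 in cluster 5, 0.707 in cluster 9 and 1.90 (1.63 to 2.22) in cluster 21, the opposite direction. In T-like cells it was 0.919 (0.553 to 1.51) in cluster 11 and 0.350 (0.175 to 0.667) in cluster 13. Cluster 15, with the highest Socs3 of the T-like clusters in Ctrl (106 CPM), held 146 of 434 T-like cells there and fewer than 50 in Tim3-KD. In neutrophil precursor-like cells it was 0.338 (0.246 to 0.464) in cluster 3 and 0.691 (0.383 to 1.29) in cluster 4, the latter short of 2-fold.

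Atf3 and Ier3 were the members that differed most in monocyte-like cells of micrometastasis beside Socs3. Atf3 had 429 in Tim3-KD against 1090 in Ctrl (0.393, 0.382 to 0.405), and Ier3 had 203 against 435 (0.468, 0.448 to 0.489). Inside the clusters of this class the Atf3 ratio was 0.451 in cluster 5, 0.548 in cluster 9 and 0.864 in cluster 21, so only the first was past 2-fold. For Ier3 the ratios were 0.625, 0.809 and 1.22 (1.12 to 1.33) in the same clusters, none past 2-fold and the last in the opposite direction. Cluster 5, with the lowest Atf3 of the 3, held 389 of the 964 Tim3-KD cells and 96 of the 1127 Ctrl cells, and cluster 21 held 132 and 412. Cluster 21 had no monocyte marker among its leading 10 genes.

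**Figure D3:**
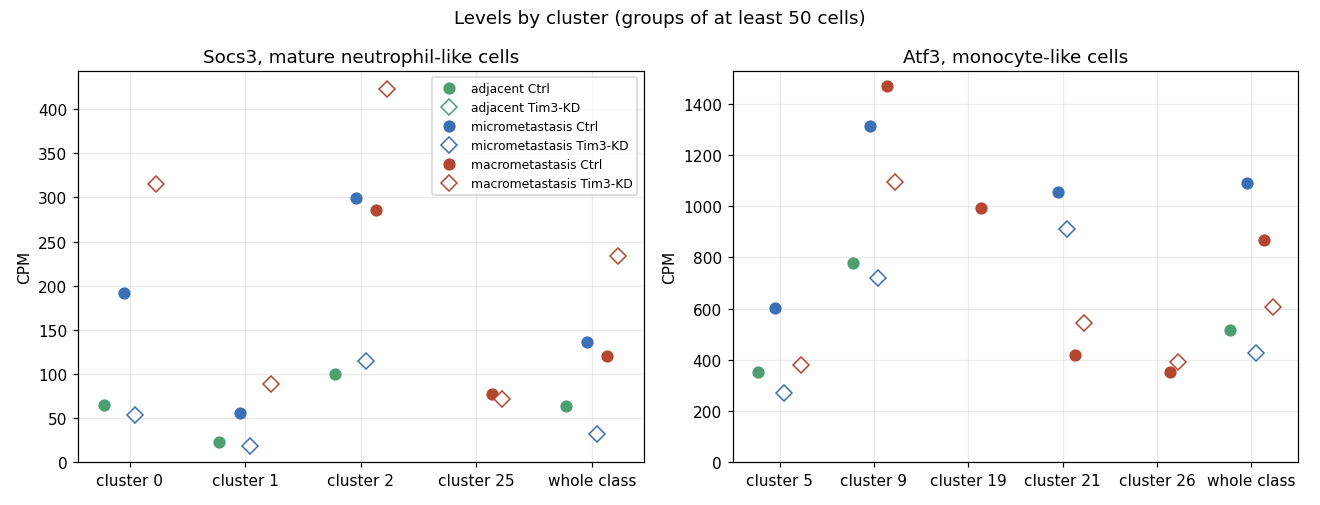
Socs3 by mature neutrophil-like cluster and Atf3 by monocyte-like cluster (CPM, groups of at least 50 cells, drawn without intervals), Ctrl and Tim3-KD libraries side by side, with the whole class at the right. Socs3 is lower in Tim3-KD in clusters 0, 1 and 2 of micrometastasis and not in cluster 2 of macrometastasis. Atf3 is lower in Tim3-KD in clusters 5, 9 and 21 of micrometastasis.

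The 3 pairs that were higher in Tim3-KD micrometastasis rested on fewer UMIs. Hspa1b in conventional dendritic cell-like cells had 145 against 43.3 CPM (3.34, 2.52 to 4.45), from 132 and 84 UMIs. Ier3 in B-like cells had 38.8 against 5.42 (7.16, 3.20 to 15.6), from 13 and 17 UMIs. Klf4 in the unnamed class led by Ltf and Ly6g had a ratio of 2.15 with an interval of 0.925 to 5.80 that includes 1.

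In macrometastasis no member was 2-fold apart over whole libraries, where 2.27% of features were higher and 10.6% lower in Tim3-KD. Egr1 was at 0.636 of Ctrl (0.625 to 0.647), Atf3 at 0.736, Klf4 at 0.562, Hspa1b at 0.561, Socs3 at 0.921 and Ier3 at 1.14. With equal class shares the Socs3 ratio was 1.12 and the Egr1 ratio 0.778, which became 1.10 with Kupffer-like cells left out of both libraries. Within classes, 4 of 64 pairs were at least 2-fold lower and 1 was higher, against 7.22% and 5.19% of all pairs. At Leiden resolution 2, which cuts the cells into finer clusters, 9 of 65 pairs were past 2-fold. The share of all pairs at that setting is not given here, so this count is not read as a result about the members. Of the pairs past 2-fold in the main clustering, Egr1 in Kupffer-like cells had the most UMIs. It had 456 CPM in Tim3-KD (936 cells) and 1279 in Ctrl (803 cells), a ratio of 0.356 (0.344 to 0.369).

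The other members leaned the same way in those Kupffer-like cells. Atf3 was at 0.518, Klf4 at 0.558, Ier3 at 0.565, Hspa1b at 0.624 and Socs3 at 0.835 of Ctrl, all short of 2-fold. Inside cluster 24 alone the Egr1 ratio was 0.373 (0.361 to 0.387), close to the value of the whole class, and the ratios of the other members there lay between 0.541 and 0.869. Of the listed genes in Kupffer-like cells, 8 of 12 immediate early transcription factors, 3 of 12 other immediate early genes and 2 of 5 heat shock genes were at least 2-fold lower and none was 2-fold higher, where 7.27% of all features of these cells were lower and 2.32% higher. The median log2 ratios of the lists were -1.16, -0.82 and -0.99 against -0.02 for all 2159 features of the class. In micrometastasis the Egr1 ratio was 1.03 (0.974 to 1.09) over all Kupffer-like cells and 0.912 (0.861 to 0.965) inside cluster 24. Over the class Ier3 was at 1.73, Klf4 at 1.63, Socs3 at 1.55, Hspa1b at 1.25 and Atf3 at 1.12 of Ctrl, where the median of all features was 0.13 on the log2 scale. Inside cluster 24 the ratios were 1.53, 1.44, 1.38, 1.11 and 0.991 in the same order, and the intervals of the last 2 included 1.

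The remaining pairs past 2-fold in macrometastasis were in other cells. Hspa1b in B-like cells had 14.4 in Tim3-KD against 58.0 in Ctrl (0.248, 0.170 to 0.352). Klf4 was at 0.424 in B-like cells (0.356 to 0.503) and at 0.470 in neutrophil precursor-like cells (0.231 to 0.980), a call that was lost without cells of high doublet score (log2 ratio 0.012). Hspa1b in the unnamed class led by Ctla2a and Cd34 was higher, 5.07-fold, with an interval of 1.29 to 43.8 from 31 and 2 UMIs. Socs3 in mature neutrophil-like cells was short of 2-fold, at 234 in Tim3-KD against 121 in Ctrl (1.93), and cluster by cluster its ratio was 1.48 in cluster 2 and 0.921 in cluster 25. Cluster 25 held 1337 of the 1635 Ctrl cells and 983 of the 2001 Tim3-KD cells of that class.

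**Figure D4:**
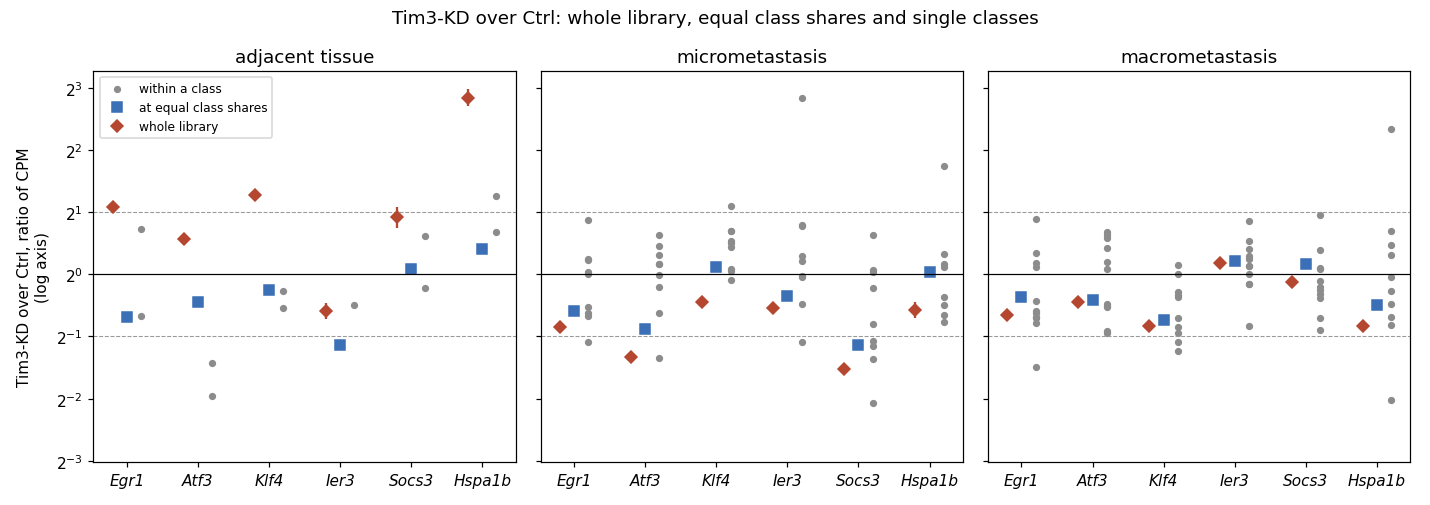
Ratio of Tim3-KD to Ctrl for each member at each site (log axis), over whole libraries (diamonds, with exact 95% intervals), with Ctrl class levels at the Tim3-KD class shares (squares) and within classes (dots); dashed lines mark 0.5 and 2. Diamonds and squares lie on opposite sides of 1 for Egr1, Atf3 and Klf4 in adjacent tissue, for Klf4 and Hspa1b in micrometastasis and for Socs3 in macrometastasis.

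Genes of the 3 lists were counted over whole libraries beside the members. In adjacent tissue 7 of 16 immediate early transcription factors, 8 of 18 other immediate early genes and 1 of 5 heat shock genes were at least 2-fold higher in Tim3-KD, and 1 of each list was lower, beside the 34% and 9.39% of all features given above. Jun was the highest of them at 7.77-fold, with Rhob at 4.73 and Klf2 at 4.63, and Fosl1 was lower, at 0.0692 of Ctrl from 7 UMIs in Tim3-KD. In micrometastasis none was higher and 5 of 15, 3 of 17 and 0 of 7 were lower (18.2% of all features), led by Egr2 (0.278), Nr4a3 (0.296), Nr4a2 (0.352) and Csrnp1 (0.410). In macrometastasis 2 of 12, 3 of 13 and 0 of 5 were lower (10.6% of all features) and none higher, and Ccn1 (0.323), Socs1 (0.377), Errfi1 (0.446) and Jun (0.456) had the lowest ratios. Several of these counts lie near the share of all features. The class makeup of the libraries differed in these comparisons too, and its part in the list counts was not tested.

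Site and day were compared in the Ctrl libraries only. Since each site was scaled in a matrix of its own, these comparisons rest on the UMIs recovered from the deposited values. Of 40 pairs of member and class, 13 were at least 2-fold higher in micrometastasis than in adjacent tissue of the same day, against 10.1% of all pairs, and 5 were lower, against 3.88%. Ier3 and Socs3 supplied 11 of the 13: Ier3 was higher in 5 of 7 classes and Socs3 in 6 of 7. In monocyte-like cells Ier3 had 435 CPM in micrometastasis and 116 in adjacent tissue (3.75, 3.48 to 4.03), and Socs3 had 115 and 52.1 (2.22, 1.98 to 2.49). Inside the monocyte-like clusters 5 and 9 the ratios were 1.80 and 2.69 for Ier3 and 1.75 and 1.45 for Socs3, so the Socs3 call was lost, and of these 2 libraries only micrometastasis had 50 cells of cluster 21. In mature neutrophil-like clusters 0, 1 and 2 both genes stayed past 2-fold, at 2.41, 2.09 and 3.05 for Ier3 and 2.93, 2.46 and 2.98 for Socs3. Egr1 in T-like cells went the other way, with 71.5 against 305 (0.235, 0.195 to 0.281), as did Hspa1b in T-like cells (0.329, 0.234 to 0.459) and Atf3 in mature neutrophil-like cells (0.433, 0.405 to 0.462). The Atf3 ratios inside clusters 0, 1 and 2 were 0.651, 0.678 and 0.755, none past 2-fold, and cluster 2 held 245 of 571 of these cells in adjacent tissue and 192 of 1471 in micrometastasis. In T-like cells the Egr1 ratio was 0.178 (0.138 to 0.226) in cluster 11 and 1.60 (0.831 to 3.23) in cluster 15. The Hspa1b ratio was 0.411 (0.257 to 0.641) in cluster 11 and 0.516 (0.252 to 1.04) in cluster 15, the latter short of 2-fold.

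Between micrometastasis on day 3 and macrometastasis on day 12, where site stage and day cannot be told apart, 12 of 71 pairs were at least 2-fold higher in macrometastasis and 3 were lower, against 12.5% and 5.21% of all pairs. Hspa1b made up 5 of the 12. It had 58.0 against 13.7 CPM in B-like cells (4.23, 3.00 to 6.07) and 5.16 against 1.14 in mature neutrophil-like cells (4.53, 2.42 to 9.23). In NK or ILC1-like cells the ratio was 4.19 (1.86 to 11.05). Markers of other cells were higher in macrometastasis Ctrl too. Over whole libraries Clec4f had 1137 against 250, Kdr, an endothelial receptor, 110 against 11.8, and Alb 93.3 against 10.4. Inside mature neutrophil-like cells, which should lack them, Clec4f had 19.2 against 5.31, Kdr 5.56 against 0.949 and Alb 80.4 against 13.3. The Hspa1b level of these cells in macrometastasis, 5.16, lay below all 3. In B-like cells Clec4f had 18.4 against 11.5, Kdr 1.47 against no UMI and Alb 16.2 against 1.28. In NK or ILC1-like cells Clec4f had 10.3 against 4.03, from 11 and 3 UMIs with overlapping intervals. Kdr was level there, at 2.81 against 2.69, and Alb had 5.62 against no UMI. The part of background RNA in the Hspa1b differences was not tested. Klf4 was higher in mature neutrophil-like cells, at 19.1 against 5.31 (3.59, 2.67 to 4.89). In macrometastasis this level lay below those of Clec4f and Alb in the same cells and above that of Kdr. The part of background RNA in the Klf4 difference was not tested either. These neutrophils lay in different clusters, since cluster 25 held 1337 of 1635 of them in macrometastasis Ctrl and fewer than 50 in micrometastasis Ctrl. In cluster 2, which both libraries held, the Klf4 ratio was 2.73 (1.56 to 5.10), and Hspa1b had too few UMIs there to compare. Elsewhere, Atf3 was lower in B-like cells (0.401, 0.348 to 0.462) and Ier3 in T-like cells (0.456). Inside T-like clusters 11, 13 and 15 the Ier3 ratios were 0.654, 0.499 and 0.727, so only cluster 13 was past 2-fold. Hspa1b itself was lower in the unnamed class led by Ctla2a and Cd34, at 1.22 against 17.2, from 2 and 44 UMIs (0.0711, 0.00834 to 0.272). Socs3 was past 2-fold in 0 of 12 classes.

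The 51 pairs of member and class past 2-fold in these 5 comparisons were set beside the clusters of their class, a check added after the values were seen. In 47 of them at least 1 cluster could be compared. Of these, 28 were past 2-fold in the same direction in every such cluster, 10 in none, and 4 had a cluster in the opposite direction. Classes with a single comparable cluster make up part of the 28.

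The members were also compared inside all clusters of enough cells, whether or not their class was past 2-fold. In Tim3-KD against Ctrl, 2 of 10 pairs of member and cluster in adjacent tissue, 6 of 83 in micrometastasis and 7 of 96 in macrometastasis were at least 2-fold higher, against 9.94%, 5.82% and 4.91% of all pairs of feature and cluster. In the same order 2, 7 and 6 were lower, against 10.2%, 5.62% and 7.02%. These counts include clusters of classes already past 2-fold for the same member, and several lie near the share of all pairs. The following were named after their values were seen, and their classes were not past 2-fold for that member. Egr1 in T-like cluster 11 was at 2.88 (2.19 to 3.82) of Ctrl in micrometastasis and 3.25 (2.52 to 4.26) in macrometastasis. In macrometastasis Ier3 in monocyte-like cluster 9 was at 2.16 (1.92 to 2.43), and in endothelial-like cluster 18 Atf3 was at 0.394 (0.299 to 0.511) and Egr1 at 0.492 (0.442 to 0.546).

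Single cells that held a UMI of a member more often held a UMI of another. After thinning, the share of cells with one member was higher among cells with a second member than among cells without it in 347 of 436 comparisons of a pair of members within a class and library, and the intervals did not touch in 87 of them. Those are 79.6% and 20.0% of the comparisons, against 46.4% and 0.786% of 27621403 comparisons of pairs of other features in the same groups, which were not matched on level. For Egr1 with Atf3 it was higher in 37 of 43 groups, apart in 15. In 1 comparison the intervals were apart the other way, Hspa1b with Atf3 in the Kupffer-like cells of macrometastasis Ctrl. The mixture of clusters 23 and 24 in a class moves with this measure. Within cluster 24 alone, Atf3 was found in 61.6% of macrometastasis Tim3-KD cells with Egr1 (55.4% to 67.6%) and 27.9% of those without (23.97% to 32.1%). In macrometastasis Ctrl the shares were 65.0% (60.9% to 68.9%) and 45.6% (38.0% to 53.4%). They were 60.4% and 40.7% in micrometastasis Ctrl and 73.3% and 66.7% in adjacent Tim3-KD, with overlapping intervals. In micrometastasis Tim3-KD they were 56.9% and 58.8%.

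Hspa1b and its neighbour Hspa1a are near-identical copies, so their separate values are less certain than those of the other members. Of the 50-base words in the Hspa1b transcript, 62.3% also occur in Hspa1a, but the last 619 bases, where a 3′ library is read, share none. A further feature in the matrices holds reads given to both copies, at 7.75 to 31.8 CPM over whole libraries. Hspa1b did not exceed Hspa1a in 46 of 50 groups of class and library with at least 20 UMIs summed over the 2 genes. The number of Hspa1b UMIs for each Hspa1a UMI was 0.226 to 0.467 in Kupffer-like cells, 0.131 to 0.239 in monocyte-like cells and 0.482 to 0.815 in endothelial-like cells. It was 1.5 (0.908 to 2.51) and 2.42 (1.20 to 5.20) in the 2 groups of NK or ILC1-like cells and 1.64 (1.29 to 2.07) in T-like cells of adjacent Tim3-KD. Of the 4 groups above 1, 2 had an interval above 1. The quotient was looked at after the levels were known.

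**Figure D5:**
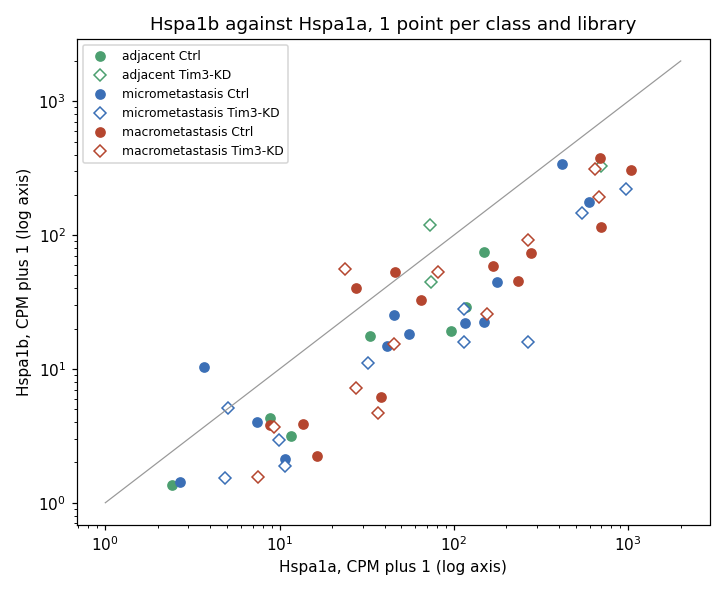
Hspa1b against Hspa1a level (CPM plus 1, log axes) in each group of class and library, with a grey line where both are equal. Most groups lie below the line, and the few above it include NK or ILC1-like cells and the T-like cells of adjacent Tim3-KD.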

How the data were processed

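Single-cell RNA libraries (10x 3′, version 3.1) were made from CD45+ sorted liver cells, 1 library for each of 6 groups. Per the submitters' processing notes, reads were trimmed with Trim Galore 0.4.3 and mapped with STAR 2.7.7a to GRCm38, and per the study's methods reads in exons and introns were counted and predicted doublets removed. The deposited matrices hold, for each site, scores that the authors made by scaling variable features across the cells of that site, so the scores are not comparable between sites. UMIs and total UMIs per cell were recovered by inverting that scaling, and 99.997% or more of the values came out whole within 0.05 of a UMI. Only Cst3, in 2 matrices, was not recovered. Scores were cut at 10, so the UMIs of 0.144% to 0.161% of detected values are lower limits. Among the members over whole libraries this touched Hspa1b alone, in 2 cells of micrometastasis Ctrl and 1 of micrometastasis Tim3-KD. The inversion was tested on simulated data.

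Levels are summed UMIs of a gene over summed total UMIs (CPM), with exact Poisson intervals. Shares have exact Clopper-Pearson intervals and ratios exact conditional binomial intervals, all two-sided at 95%. Libraries held 7086531 to 79971793 UMIs. Cells were clustered with scanpy 1.11.5 (30 principal components, 15 neighbours, Leiden resolution 1) on 1607 of 1641 shared features, with the members and the listed stress genes left out, and no cell was removed as a doublet. Comparisons within classes and clusters needed 50 cells in both libraries and 20 UMIs over both, and weighting by class shares took classes of at least 10 cells in both. Shares of cells were taken after thinning each cell to 1500 UMIs. Pearson correlations used log2(CPM + 10). Python 3.11.15, scipy 1.17.1 and scikit-learn 1.9.0 were used.

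The members and lists were chosen with earlier results of these data known. The text names the 6 members, the 3 features most like each, up to 4 list genes in each Tim3-KD comparison and class markers. The Kupffer-like cluster comparison and the Hspa1b to Hspa1a quotient were added after values were seen, as were the ratios inside clusters, the co-detection of other features, and Neat1 was named then too. With 1 library in each group no test was made within a site, and a model across sites, which would take the sites as replicates of 1 effect, was not run.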

Additional observations from a re-analysis of the deposited data

Results flagged for a closer look

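In 4 combinations of member and class, the Tim3-KD to Ctrl ratio lay on opposite sides of 1 at different sites and differed by at least 4-fold, with both counting intervals clear of 1. These are 4 of 52 combinations measured at more than 1 site (7.69%), against 3.10% of all 12716 combinations of feature and class. The differences between sites were not tested, since each group had 1 library. Socs3 in mature neutrophil-like cells stood at 0.237 of Ctrl in micrometastasis and 1.93 in macrometastasis, 3.03 apart on the log2 scale. Inside clusters the macrometastasis ratios were 1.48 (cluster 2) and 0.921 (cluster 25, with 1337 of 1635 Ctrl cells), and the micrometastasis ratios 0.280 to 0.384. Hspa1b in B-like cells stood at 0.248 in macrometastasis and 2.39 in adjacent tissue, 3.27 apart. Inside B-like cluster 8 these ratios were 0.273 and 2.02. Hspa1b in the unnamed class led by Ctla2a and Cd34 stood at 0.587 in micrometastasis and 5.07 in macrometastasis, 3.11 apart, with 2 UMIs in macrometastasis Ctrl. Atf3 in T-like cells stood at 0.370 in adjacent tissue and 1.55 in micrometastasis, 2.06 apart. Inside T-like clusters the adjacent Atf3 ratio was 1.05 (cluster 15), and those in micrometastasis were 0.783 (cluster 11) and 2.05 (cluster 13).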

How the results depend on the processing

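With 1 library in each group and no replicate, the counting intervals understate the real error, and no library could be left out. No paired analysis was possible within a site, because the groups there share a single replicate number, 1, with 1 library each. A model that takes the 3 sites as pairs could be fitted and was not run. Taking the mean over cells in place of summed UMIs left 1 of 6 members past 2-fold in adjacent tissue (3 before) and 1 in micrometastasis (2 before), and Klf4 in the unnamed class led by Ltf and Ly6g in micrometastasis then had a log2 ratio of -0.074. Weighting Ctrl classes by Tim3-KD shares gave 1 in adjacent tissue (Ier3, lower, none of the 3 before) and 1 in micrometastasis (Socs3), and turned the adjacent log2 ratios of Egr1 to -0.68 and Klf4 to -0.26. Atf3 turned from 0.57 to -0.44. For Egr1 and Klf4 the turn rests on 31 Kupffer-like cells of adjacent Ctrl: with that class left out of the weighting, an alternative added after the data were seen, 1 member was past 2-fold in adjacent tissue (Hspa1b) and 1 in micrometastasis (Socs3), and Egr1 stood at 0.41, Klf4 at 0.26 and Atf3 at -0.29 in adjacent tissue. Dividing by the trimmed mean ratio of all features left Socs3 as 1 member in micrometastasis and gave 2 in adjacent tissue (Hspa1b higher, Ier3 lower), and 6 of 53 pairs within classes (10 before). At Leiden resolution 2, 9 of 65 macrometastasis pairs within classes were past 2-fold (5 before). Without cells of high doublet score, Klf4 in macrometastasis neutrophil precursor-like cells had a log2 ratio of 0.012. The other 58 recomputed counts stayed within 1.5 times. The shares of all features under these alternatives are not given here, so the recomputed counts are not set against a background. Leaving out the Kupffer-like cluster 23, an alternative chosen after the data were seen, gave 4 members in adjacent tissue and the same counts elsewhere. Of single values, 342 of 390 within classes and 67 of 144 over whole libraries moved by less than their counting interval. Why the values moved was not tested beyond what each alternative changes by construction.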
